A study of Mus musculus with 8 samples.

Results

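Inherited short sleep in humans has been traced to changes in a small number of genes, and orexin signaling is one of the pathways through which wakefulness is held. Of these, 8 genes are described here in the cortex of tauopathy mice: *Bhlhe40*, *Bhlhe41*, *Npsr1*, *Per3*, *Sik3*, *Csnk1d*, *Hcrtr1* and *Hcrtr2*. They were chosen by name as genes of inherited short sleep, sleep timing or sleep need other than *Adrb1*, together with the orexin receptors, and all 8 were found among the 54532 genes of the deposited count table. The samples were 4 *PS19* mice and 4 *Adrb1-A187V;PS19* mice, 1 library of cortical RNA per mouse, all 8 mo old, of the C57BL/6 strain and, by the study's methods, male. *PS19* mice carry a human 1N4R tau transgene with the P301S mutation under the mouse prion protein promoter, and this transgene was present in both groups. *Adrb1-A187V;PS19* mice carry in addition 1 mutant copy and 1 normal copy of the β1-adrenergic receptor gene, a knock-in of a human short-sleep change. No mice without the tau transgene were sequenced, so every comparison is between 2 groups with tauopathy.

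The members act at several levels of sleep control. BHLHE41 (DEC2) and its paralog BHLHE40 (DEC1) are transcriptional repressors that bind E-boxes and dampen the clock activators CLOCK and BMAL1, and BHLHE41 is also known to repress the orexin precursor gene. PER3 is a period protein of the clock, and CSNK1D is a kinase that phosphorylates period proteins and so sets their stability. SIK3 is a kinase whose gain-of-function mutation in mice raises the need for non-REM sleep. NPSR1 is the receptor of neuropeptide S, a wake-promoting peptide of the brainstem, and HCRTR1 and HCRTR2 are the receptors of the orexin peptides, which are made by neurons of the lateral hypothalamus. The neurons that make these peptides lie outside the cortex, the tissue named for the samples.

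The total was between 14653222 and 21223754 counts per mouse, which left the receptor genes with 26 to 87 counts per mouse and the other members with 335 to 3738. All 8 members passed the filter on low counts, as did 17195 genes in total. The quasi-likelihood test of edgeR put 2.80% of the genes tested, 481 in number, under an unadjusted p of 0.05 in *Adrb1-A187V;PS19* vs. *PS19* mice, and 0 of the 8 members were among them. DESeq2's Wald test and limma-voom also gave 0 of the 8. After adjustment 0 genes passed with any of these 3 tools, and the edgeR adjusted p of each member was 0.9996. In bulk tissue, fewer cells of a type and less RNA per cell cannot be told apart. The cells that make up the samples were checked with 12 marker lists. Cortical excitatory neuron markers such as *Slc17a7*, at 1143 CPM (counts scaled to library size) in the *PS19* and 1005 in the *Adrb1-A187V;PS19* mice, were abundant, 3 of the 7 were lower and 1 (*Foxp2*) higher at the unadjusted threshold. All 9 basal forebrain markers had a higher mean in the *Adrb1-A187V;PS19* mice, 8 of them under the threshold, and their summed level was 36.1 to 59.6 CPM in the *PS19* mice and 57.6 to 88.8 in the others. The striatal markers were also higher on average in all 8 cases, by 0.34 in the median on the log2 scale, with 1 of them (*Tac1*) under the threshold, and their summed level was 940 to 1861 CPM in the *PS19* mice and 984 to 2084 in the others. Of the 6 interneuron markers, 1 was higher (*Gad2*) and 1 lower (*Vip*) at the threshold, and the other 8 lists had no gene under it. Among those 8, the summed level of the choroid plexus list varied most, from 24.6 to 369 CPM in the *PS19* mice and 27.3 to 582 in the others. For the astrocyte list it was 1148 to 1972 and 1188 to 2011 CPM, and for the microglia list 321 to 535 and 313 to 509. The hypothalamic list was low but also varied between mice. Its summed level was 7.74 to 23.0 CPM in the *PS19* mice and 5.03 to 29.6 in the others, and *Avp* had 616 counts over the 8 mice. The part of these differences in the results for the 8 genes was not tested.

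Short sequences upstream of the members are shown first, because clock factors are known to bind these letters and *Per3* is set beside such factors further on. Within the 250 bases before each RefSeq start site (GRCm38.p6), 6 of the 8 members had a window, and 3 motifs were searched on both strands: the E-box CACGTG, the D-box TTATGTAA and the cAMP response element TGACGTCA. Capitals mark the motif in each line, 5′ to 3′ on the strand of the gene.
Per3 D-box, chr4:151044852-151044881: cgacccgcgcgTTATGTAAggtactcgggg
Per3 D-box, chr4:151044805-151044834: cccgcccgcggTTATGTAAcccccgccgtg
Bhlhe41 E-box, chr6:145865557-145865584: ggtacgttccgCACGTGagctgggtgct
Sik3 E-box, chr9:46012689-46012716: acgcgcgtccgCACGTGacgcgcggttg
Npsr1 E-box, chr9:24097980-24098007: ggagagagcagCACGTGgatcttccttg
The *Per3* windows lie on the minus strand and their motifs begin at positions -205 and -158 from the start site. D-boxes are bound by the clock output factors DBP, TEF and HLF and by the repressor NFIL3. A D-box of these letters is in the windows of 0.977% of genes, and 2 or more are in those of 6 of 27025 genes, *Per3* among them. An E-box is in the windows of 6.86% of genes and was found for 3 members, beginning at position -153 in *Bhlhe41* (minus strand), -120 in *Sik3* and -27 in *Npsr1* (both plus strand). RefSeq start sites can lie inside the GENCODE gene, as those of *Bhlhe41* and *Npsr1* do. A match is a description of the letters and not a measured binding site. The cAMP response element, in 1.77% of genes, was in no member's window.

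Compared per kilobase of gene length, the members fell into 3 tiers. Levels between genes are given here as CPM, the counts scaled to a common library size with edgeR's TMM factors, divided by the gene's length in kilobases. *Csnk1d* stood first with 24.8 ± 1.149 CPM per kilobase (SD, n = 8 mice), above 88.5% of the genes tested and above *Sik3* in every mouse. *Sik3* followed with 19.5 ± 0.705 and *Bhlhe40* with 18.03 ± 2.03. The latter 2 did not separate beyond their spread, since *Sik3* was the higher of them in 5 of 8 mice. *Per3* had 4.98 ± 0.756 and *Bhlhe41* 4.46 ± 0.547, near the middle of the genes tested, and again the first was higher in 5 of 8 mice. The receptors formed the lowest tier, with 0.893 ± 0.163 for *Npsr1*, 0.776 ± 0.113 for *Hcrtr1* and 0.431 ± 0.132 for *Hcrtr2*. *Npsr1* and *Hcrtr1* overlapped and each was higher in 4 of 8 mice, while *Hcrtr1* exceeded *Hcrtr2* in 7 of 8 mice. No values overlapped between the tiers. The gene length covers the exons of all transcripts, so a gene with long unused exons has its level understated. For *Hcrtr2* this length was 6162 bases and its longest coding transcript has 3761, beside 2608 and 2439 for *Hcrtr1*. The order of these 2 genes thus depends on the length used.

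**Figure D1:**
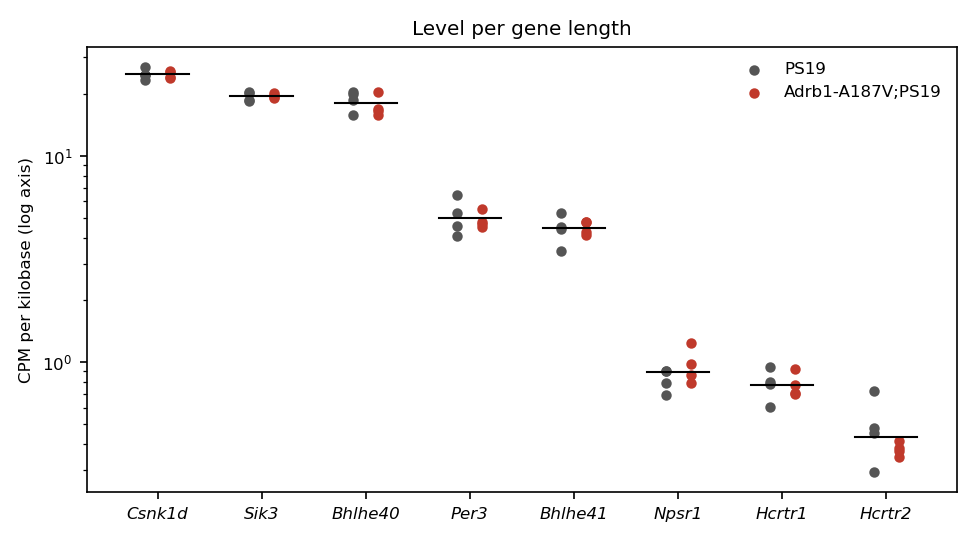
Level of the 8 genes in CPM per kilobase of gene length on a log axis, in order of the mean over 8 mice (black line), with 1 point per mouse. *Csnk1d*, *Sik3* and *Bhlhe40* lie between 15.7 and 26.9, *Per3* and *Bhlhe41* between 3.44 and 6.47, and the 3 receptors between 0.291 and 1.23.

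*Bhlhe40* (ENSMUSG00000030103, chromosome 6 of GRCm38, 108660629 to 108666925, plus strand) is a repressor that neuronal activity and the clock both induce. In CPM it had 74.0, 95.7, 94.3 and 87.9 in the *PS19* mice m677, m668, m665 and m659, and 77.4, 74.5, 79.4 and 95.5 in the *Adrb1-A187V;PS19* mice m671, m661, m660 and m658. In general the *PS19* mice were high and the *Adrb1-A187V;PS19* mice low, but m677 was the lowest of all and m658 nearly the highest, so the genotypes overlapped. The means were 88.0 ± 9.92 CPM (SD, n = 4) and 81.7 ± 9.45 (SD, n = 4), for a log2 fold change of -0.11 (SE 0.09, edgeR unadjusted p = 0.256). Without m677 the log2 fold change was -0.18 and without m658 -0.19, with edgeR unadjusted p-values of 0.0461 and 0.0400, and with adjusted p-values of 0.9998 and 0.9997. These repeats drop the 2 mice that ran most against the difference. The other 6 repeats stayed above 0.05. Without m668, m661 or m665 the log2 fold change shrank to -0.065, -0.065 and -0.071 (edgeR unadjusted p = 0.509, 0.508 and 0.481). An antisense gene with 148 counts over the 8 mice shares 2.51% of the exonic bases of *Bhlhe40*.

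*Bhlhe41* (ENSMUSG00000030256, chromosome 6, 145858243 to 145865558, minus strand) encodes the repressor that was the first to be linked to inherited short sleep. Its levels were 35.6, 23.1, 29.6 and 30.4 CPM in the *PS19* mice m677, m668, m665 and m659, and 28.7, 27.8, 32.1 and 32.1 CPM in the *Adrb1-A187V;PS19* mice m671, m661, m660 and m658. The *PS19* mice thus held both the highest and the lowest value, and the other group lay between them. With a mean of 29.7 ± 5.13 CPM (SD, n = 4) and 30.2 ± 2.24 (SD, n = 4), the log2 fold change was 0.02 (SE 0.11, edgeR unadjusted p = 0.850). Its sign turned, to -0.08, when m668 was left out. A gene on the other strand with 147 counts over the 8 mice shares 19.1% of its exonic bases, and without a stated strand setting the reads of such partners cannot be told apart.

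The balance of the 2 paralogs was also compared, because a ratio within a library does not depend on the scaling. The log2 ratio of *Bhlhe40* to *Bhlhe41* was 1.57 ± 0.41 (SD, n = 4) in the *PS19* mice and 1.43 ± 0.11 (SD, n = 4) in the *Adrb1-A187V;PS19* mice, a difference of -0.14 (2-sided exact permutation test, p = 0.600, where 0.0286 is the smallest p that 4 mice against 4 allow). The *PS19* mouse m668 had the most *Bhlhe40* and the least *Bhlhe41*, and m677 the reverse. Without m668 the difference was 0.01.

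*Per3* (ENSMUSG00000028957, chromosome 4, 151003652 to 151044665, minus strand), the period gene in which human variants have been linked to sleep timing, varied more between mice than between genotypes. It was at 50.6, 39.0, 62.2 and 43.9 CPM in the *PS19* mice m677, m668, m665 and m659, and at 43.1, 53.1, 45.0 and 45.8 CPM in the *Adrb1-A187V;PS19* mice m671, m661, m660 and m658. A single mouse of each genotype, m665 and m661, stood highest, and the *Adrb1-A187V;PS19* range lay inside that of the *PS19* mice. The means of 48.9 ± 10.03 (SD, n = 4) and 46.8 ± 4.38 CPM (SD, n = 4) gave a log2 fold change of -0.07 (SE 0.12, edgeR unadjusted p = 0.570). This value was 0.07 without m665. *Per3* lies across part of *Camta1* on the same strand, a gene with 43671 counts over the 8 mice, but they share 0 exonic bases in the GENCODE M21 models.

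*Csnk1d* (ENSMUSG00000025162, chromosome 11, 120961749 to 120991330, minus strand) was among the members that varied least. It had 118, 124, 124 and 135 CPM in the *PS19* mice m677, m668, m665 and m659, and 128, 120, 121 and 129 CPM in m671, m661, m660 and m658. Only m659 stood above all the *Adrb1-A187V;PS19* mice and only m677 below them. The mean was 125 ± 7.29 CPM (SD, n = 4) in *PS19* and 124 ± 4.93 (SD, n = 4) in the other genotype, for a log2 fold change of -0.0083 (SE 0.06, edgeR unadjusted p = 0.883). The 95% interval of its fold, 0.915 to 1.08, was the second narrowest among the members. An antisense gene with 239 counts shares 1.25% of its exonic bases.

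*Sik3* (ENSMUSG00000034135, chromosome 9, 46012820 to 46224194, plus strand), which encodes the sleep-need kinase, was the most constant of the 8 genes. Its levels were 187.3, 171.9, 174.5 and 189.2 CPM in the *PS19* mice m677, m668, m665 and m659, and 184.6, 179.02, 176.8 and 186.9 CPM in m671, m661, m660 and m658. All the *Adrb1-A187V;PS19* mice lay between the lowest and the highest *PS19* mouse. The means were 181 ± 8.81 (SD, n = 4) and 182 ± 4.73 CPM (SD, n = 4). The log2 fold change was 0.0088 with a standard error of 0.05 (edgeR unadjusted p = 0.863), and the 95% interval of the fold was 0.933 to 1.08.

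*Npsr1* (ENSMUSG00000043659, chromosome 9, 24097996 to 24316398, plus strand), the neuropeptide S receptor gene, had the largest positive difference of the members. The counts were 58, 45, 58 and 59 in the *PS19* mice m677, m668, m665 and m659, and 57, 80, 87 and 55 in m671, m661, m660 and m658. Scaled to CPM these are 3.55, 3.11, 2.74 and 3.55 against 3.42, 3.83, 4.87 and 3.11. Mice m661 and m660 stood above all *PS19* mice, whereas m671 and m658 were within their range. The means were 3.24 ± 0.394 and 3.81 ± 0.767 CPM (SD, n = 4 each), for a log2 fold change of 0.24 (SE 0.20, edgeR unadjusted p = 0.244). Without m660 the log2 fold change was 0.10. The 95% interval of the fold was 0.881 to 1.58.

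*Hcrtr1* (ENSMUSG00000028778, chromosome 4, 130130217 to 130139359, minus strand) encodes the receptor that prefers orexin-A. It was counted 40, 30, 43 and 26 times in the *PS19* mice m677, m668, m665 and m659 and 40, 42, 33 and 32 times in m671, m661, m660 and m658. In CPM the *PS19* mice had 2.45, 2.07, 2.03 and 1.57 and the others 2.40, 2.01, 1.85 and 1.81. Both ends of the range were *PS19* mice. With 2.03 ± 0.362 and 2.02 ± 0.269 CPM (SD, n = 4 each), the log2 fold change was -0.0090 (SE 0.23, edgeR unadjusted p = 0.969). Its fold had an interval of 0.705 to 1.40, so a difference within these bounds was not excluded. The size of difference that could be detected was not tested.

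*Hcrtr2* (ENSMUSG00000032360, chromosome 9, 76225880 to 76323856, minus strand), the orexin receptor whose loss causes narcolepsy in dogs, had the largest difference of the 8 genes, to lower levels in *Adrb1-A187V;PS19* mice. It was counted 48, 26, 59 and 74 times in m677, m668, m665 and m659 and 39, 53, 38 and 40 times in m671, m661, m660 and m658. The levels were 2.94, 1.79, 2.78 and 4.46 CPM in the *PS19* mice and 2.34, 2.54, 2.13 and 2.26 CPM in the others. All *PS19* mice but m668 were above every *Adrb1-A187V;PS19* mouse, and m668 was below every one. The means of 2.99 ± 1.10 and 2.32 ± 0.172 CPM (SD, n = 4 each) gave a log2 fold change of -0.37 (SE 0.25, edgeR unadjusted p = 0.167). The size rested on single mice: without m659 it was -0.12, and without m668 -0.54 with an edgeR unadjusted p of 0.0374 and an adjusted p of 0.99996. Layer 6b, a cortical layer known to respond to orexin, was represented by 6 listed marker genes, whose summed level was 70.002 to 91.9 CPM in the *PS19* and 74.1 to 87.0 CPM in the *Adrb1-A187V;PS19* mice and had 0 of 6 genes under the edgeR unadjusted threshold.

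**Figure D2:**
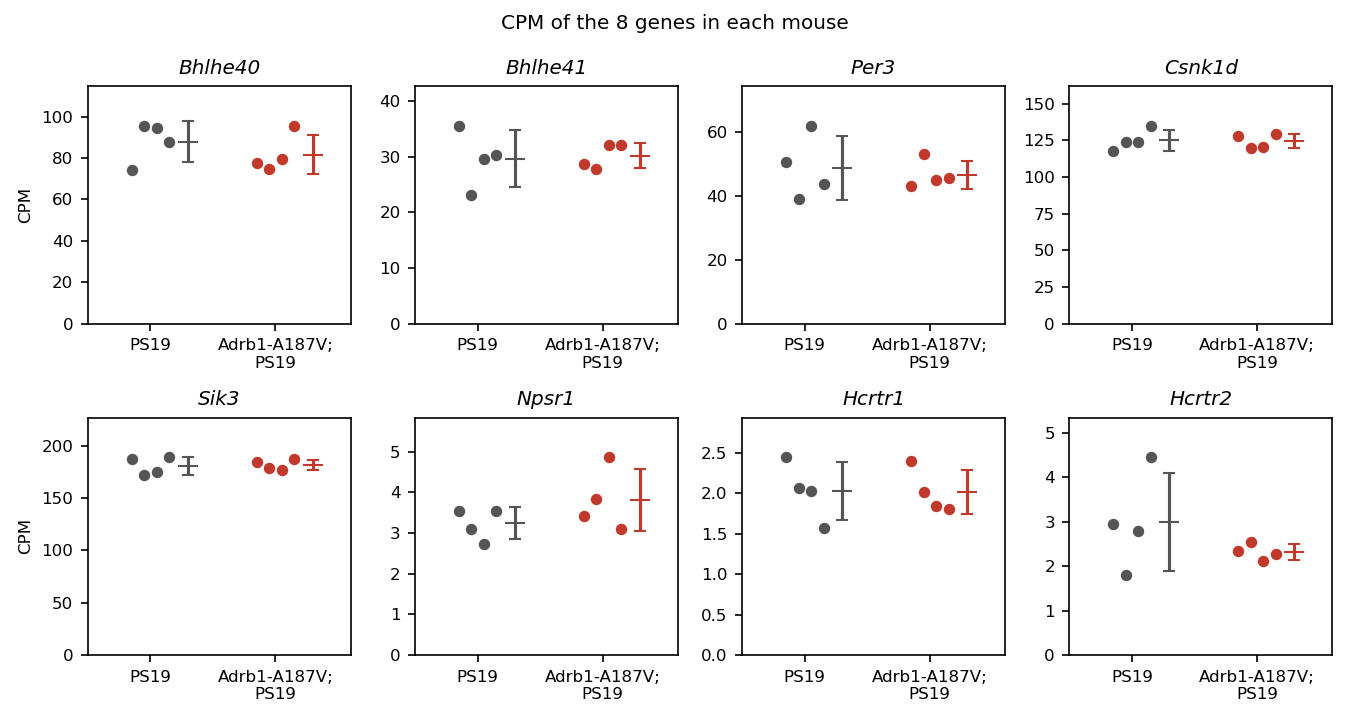
CPM of each of the 8 genes, 1 point per mouse, with the mean and SD of the 4 mice of a genotype beside the points and each vertical axis starting at 0. In every panel the genotypes overlap, and for *Hcrtr2* a single *PS19* mouse, m659 at 4.46 CPM, stands far above the rest.

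**Figure D3:**
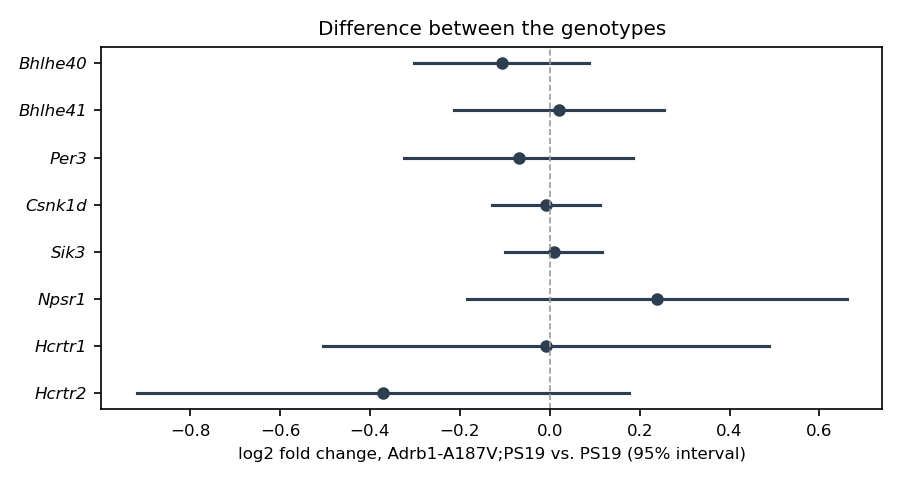
Log2 fold change of each gene in *Adrb1-A187V;PS19* vs. *PS19* mice (point) with its 95% interval from the edgeR fit (line). Every interval includes 0, from the narrow ones of *Sik3* and *Csnk1d* to that of *Hcrtr2*, which runs from -0.92 to 0.18.

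The median log2 fold change of the 8 members was -0.0087, beside 0.00046 over all genes tested, and the median of the absolute values was 0.04 beside 0.07. The log2 ratio of *Hcrtr1* to *Hcrtr2* was -0.48 ± 0.69 (SD, n = 4) in the *PS19* and -0.20 ± 0.16 (SD, n = 4) in the *Adrb1-A187V;PS19* mice, a difference of 0.29 (2-sided exact permutation test, p = 0.571). Without m659 that difference was -0.03. The ratio is of CPM not divided by gene length, so its sign cannot be set against the order per kilobase. In none of the members were the genotypes separate, where 2.02% of all genes tested had CPM values that did not overlap.

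The members varied between mice to different extents. The coefficient of variation over all 8 mice was 3.63% for *Sik3* and 4.63% for *Csnk1d*, the 2 kinases. It was 11.3% for *Bhlhe40*, 12.3% for *Bhlhe41* and 15.2% for *Per3*, several times the 2.60%, 4.37% and 3.46% that counting alone would give. The biological variation that edgeR estimated was above its trend for genes of like abundance in these 3, with 9.44%, 10.7% and 11.9% against trends of 7.83%, 9.02% and 8.16%. Both kinases lay below the trend, at 6.15% and 6.49% against 7.75% and 7.81%. For *Hcrtr1* the coefficient of variation of 14.6% was no larger than the 16.8% of counting error, so its differences between mice were not detectable at this depth. *Npsr1* had 18.2% against 12.8% from counting, and *Hcrtr2* 30.6% against 14.7%. The biological variation was below the trend for *Npsr1*, at 16.2% against 19.7%, and for *Hcrtr1*, at 16.6% against 23.5%, and close to it for *Hcrtr2*, at 21.6% against 21.4%.

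In most members the spread was smaller among the *Adrb1-A187V;PS19* mice, a difference that was not tested. In 7 of the 8 members, all but *Npsr1*, the range of the *Adrb1-A187V;PS19* mice lay inside that of the *PS19* mice, and the SD was smaller in the *Adrb1-A187V;PS19* mice in the same 7. The SD was smaller in the *Adrb1-A187V;PS19* mice for 51.4% of all genes tested. Over the same genes the share with a range inside that of the *PS19* mice was 24.2%, and the reverse held for 21.8% of genes and for 0 members. The count for the members was 6 when CPM was scaled to the total count alone. This count was chosen after the values were seen, and the members were all read in the same mice, so they are not independent. For *Bhlhe40* the nesting was narrow, with SDs of 9.92 and 9.45 CPM and highest mice at 95.7 and 95.5 CPM in *PS19* and *Adrb1-A187V;PS19*. *Hcrtr1* is also counted, though its variation between mice was no larger than counting error. The *PS19* group also held the shallowest and the deepest library, m668 and m665, and the part of depth in the spread was not tested.

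**Figure D4:**
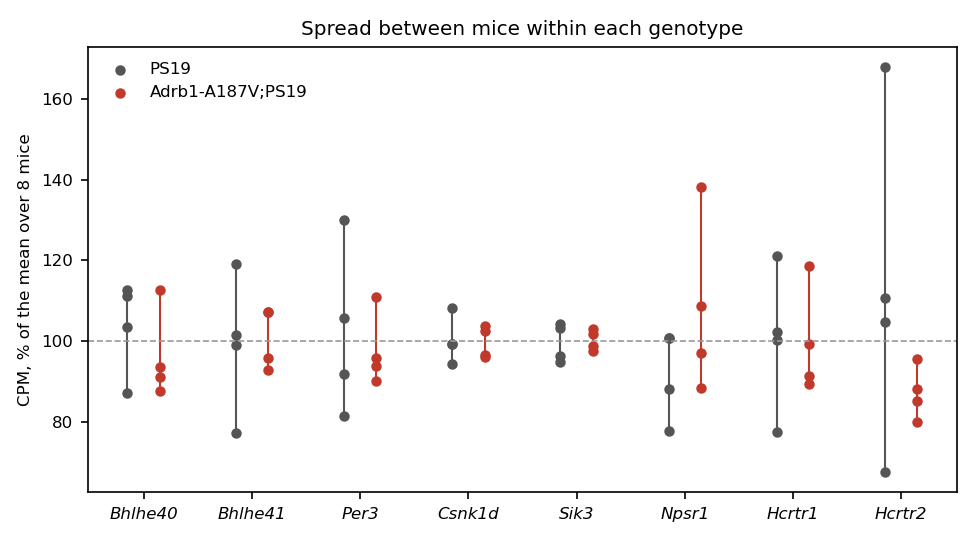
CPM of each mouse as a percentage of the gene's mean over 8 mice, with a line from the lowest to the highest mouse of each genotype. The *Adrb1-A187V;PS19* line is inside the *PS19* line for every gene but *Npsr1*.

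No pair of members was shown to vary together. Among the 28 pairs, Pearson's r over the 8 mice ran from -0.64 for *Bhlhe40* with *Npsr1* to 0.65 for *Bhlhe41* with *Sik3*, and no pair had a permutation p under 0.05 before or after adjustment. The paralogs *Bhlhe40* and *Bhlhe41* had r = -0.38 and Spearman's rho = -0.33 (exact permutation p = 0.374 and 0.428, adjusted p = 0.797 and 0.738 over 28 pairs), and r = -0.21 without m668 and m658. For the orexin receptors r was -0.39 and rho -0.05 (exact permutation p = 0.340 and 0.935, adjusted p = 0.797 and 1), and r was 0.08 without m677 and m659.

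*Per3* was set beside the 22 other clock and clock output genes tested, 0 of which had an edgeR unadjusted p under 0.05 between the genotypes, with 11 of 22 higher and -0.0016 as the median of the log2 fold changes. No label gives the hour of killing. Of the 22 relations, 5 had an exact permutation p under 0.05 for r, and 0 passed after adjustment. By Pearson's r the largest were with *Rora*, a nuclear receptor that activates clock genes, and with *Hlf*, a D-box activator. With *Rora*, r was 0.85 and rho 0.76 (exact permutation p = 0.00580 and 0.0368, adjusted p = 0.0783 and 0.404 over 22 genes), and without m665 and m661 r was 0.52. In CPM *Rora* had 106 and 107 in those 2 mice and 86.1 to 91.3 in the other 6, so this relation rests on them. With *Hlf*, r was 0.84 and rho 0.71 (exact permutation p = 0.00712 and 0.0576, adjusted p = 0.0783 and 0.422), and r was 0.64 without m665 and m661. *Hlf* had 254, 245 and 240 CPM in m665, m677 and m661, the mice that were also the highest in *Per3*, and 187.3 to 213 in the other 5. Without m658 the value for *Hlf* was r = 0.96 (exact permutation test, adjusted p = 0.0349), and it was the sole pair that passed in any repeat with a mouse left out. By Spearman's rho the largest was with *Npas2*, a paralog of *Clock*, which was low where *Per3* was high. Its rho was -0.90 and its r -0.71 (exact permutation p = 0.00456 and 0.0499, adjusted p = 0.100 and 0.219), and r was -0.73 without m665 and m661. With *Cry1*, a repressor of the clock, r was -0.75 and rho -0.60 (exact permutation p = 0.0300 and 0.132, adjusted p = 0.219 and 0.582), and r was -0.26 without those 2 mice. With *Nr1d2*, which encodes the repressor REV-ERBβ, r was 0.74 and rho 0.67 (exact permutation p = 0.0418 and 0.0831, adjusted p = 0.219 and 0.457), and r was 0.87 without them. The other factors that bind D-boxes had r of 0.05 for *Dbp*, 0.18 for *Tef* and 0.12 for *Nfil3* (exact permutation p = 0.902, 0.685 and 0.784, adjusted p = 0.954, 0.941 and 0.952), with rho of 0.14, 0.26 and 0 (exact permutation p = 0.752, 0.536 and 1, adjusted p = 0.973, 0.787 and 1). Without m665 and m661 these r were 0.45, 0.41 and -0.67.

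*Bhlhe40* was set beside 14 immediate early genes, which neurons switch on within minutes of activity. Between the genotypes 12 of the 14 had a fitted log2 fold change below 0, and the median of the log2 fold changes was -0.13. *Bdnf*, the neurotrophin gene, was alone under the edgeR unadjusted threshold (log2 fold change -0.20, SE 0.09, edgeR unadjusted p = 0.0383, adjusted p = 0.9996). Over the 8 mice *Bhlhe40* had r = 0.76 and rho = 0.67 with *Fosb* (exact permutation p = 0.0448 and 0.0831, adjusted p = 0.241 and 0.268 over 14 genes) and r = 0.75 and rho = 0.67 with *Npas4* (exact permutation p = 0.0247 and 0.0831, adjusted p = 0.241 and 0.268). These r were 0.81 and 0.82 without m668 and m658. For *Arc* the values were r = 0.18 and rho = 0.21 (exact permutation p = 0.656 and 0.619, adjusted p = 0.765 and 0.722), and r = 0.27 without those 2 mice. Within the *PS19* and the *Adrb1-A187V;PS19* mice (n = 4 each) r was 0.94 and 0.39 for *Fosb*. It was 0.83 and 0.67 for *Npas4*, and 0.73 and -0.56 for *Arc*. Over the 14 genes r in all 8 mice ran from -0.35 for *Ier2* to 0.76, and 12 of them were above 0. Whether these relations differ from each other or between the genotypes was not tested. *Arc* had 244 CPM in m671, a mouse low in *Bhlhe40*, 250 and 171 in m665 and m668, which were high in it, and 38.7 to 92.6 in the other 5. None of the 14 relations passed after adjustment.

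**Figure D5:**
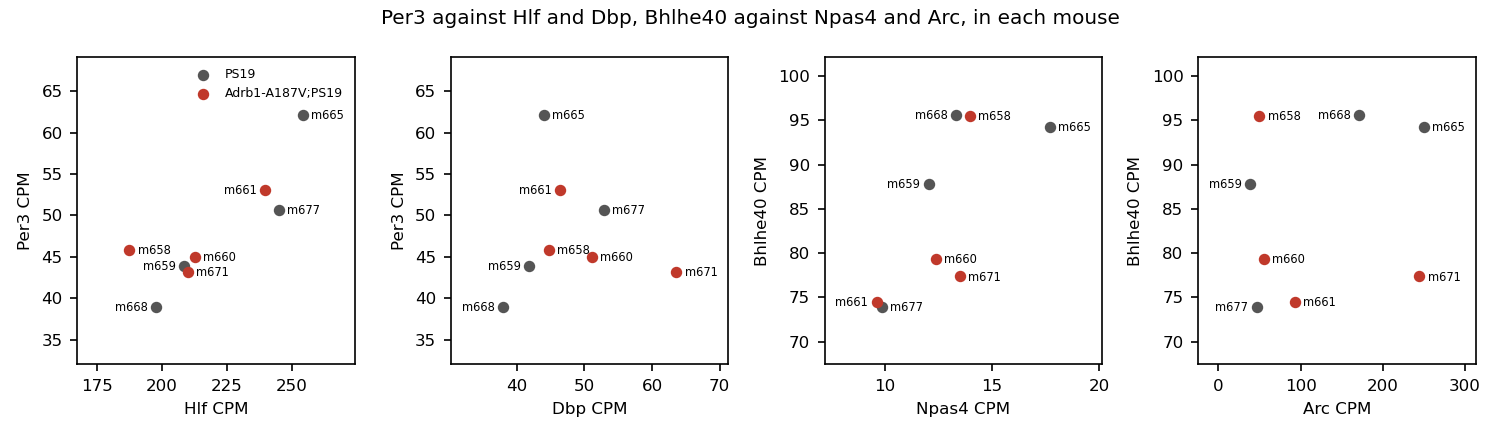
Each mouse as a labeled point, with CPM of *Per3* against *Hlf* and *Dbp* and CPM of *Bhlhe40* against *Npas4* and *Arc*. On the log2 scale r is 0.84 for *Per3* with *Hlf* and 0.05 with *Dbp*, and m671 is high in *Arc* and low in *Bhlhe40*.

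The genes whose log2 CPM followed each member most closely over the 8 mice were listed among 12133 genes with a mean of at least 5 CPM. From 8 to 37 genes had r over 0.9 with a member, all values come from the same libraries, and they are given as a description. *Dnajb5* and *Usp31* had r of 0.99 and 0.98 with *Bhlhe40*, and *Agfg1* 0.97. *BC052040*, *Snx1* and *Trim56* had 0.97, 0.96 and 0.95 with *Bhlhe41*. For *Per3* they were *4833422C13Rik*, *Acsl5* and *Eps15*, with 0.99, 0.96 and 0.96. *Sik3* was followed by *Rap1b*, *Phlpp1* and *Cox18* with 0.99, 0.97 and 0.97, and *Csnk1d* by *Lrrc47*, *Abca3* and *Fam220a* with 0.95, 0.94 and 0.93. The receptor *Npsr1* had *Ttc30b*, *Aox1* and *Ap5b1* with 0.99, 0.97 and 0.95. *Hcrtr1* had *2610035D17Rik*, *Anapc16* and *1810022K09Rik* with 0.96 each, and *Hcrtr2* had *Mast1*, *Eif2b4* and *Lancl2* with 0.95, 0.94 and 0.93.

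The ligands of the receptors were nearly absent from these libraries. The orexin precursor gene *Hcrt* had 17 counts over the 8 mice and the neuropeptide S gene *Nps* had 4, and neither passed the filter. The 15 tested genes of the Gq pathway, through which orexin receptors signal, had 0 under the edgeR unadjusted threshold and a median log2 fold change of -0.0053. *Itpr1*, the calcium release channel, *Prkcb*, a protein kinase C, and *Slc8a2*, a sodium-calcium exchanger, are the most abundant of them and had log2 fold changes of -0.0053, -0.0019 and -0.09.

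The SIK3 pathway held 2 genes under the unadjusted threshold among the 17 tested, 1 in each direction. Among the lists other than the cell markers, it was the one with the most such genes. Over the 6 gene lists other than the cell markers, 3 of the 89 genes tested were under the threshold, beside 2.80% of all genes. *Crtc3*, a CREB coactivator that SIK kinases hold in the cytoplasm, had 20.2, 17.9, 17.5 and 19.6 CPM in the *PS19* mice m677, m668, m665 and m659 and 20.995, 21.1, 23.6 and 21.4 CPM in m671, m661, m660 and m658. All the *Adrb1-A187V;PS19* mice were above all the *PS19* mice, for a log2 fold change of 0.21 (SE 0.08, edgeR unadjusted p = 0.0223, adjusted p = 0.9996). The genotypes were likewise separate in 2.02% of all genes tested. *Hdac9*, a class IIa deacetylase of the family that SIK3 phosphorylates, had 46.8, 50.8, 51.1 and 45.5 CPM against 41.2, 45.1, 40.3 and 46.6 in the same order of mice. Its genotypes overlapped, and the log2 fold change was -0.16 (SE 0.07, edgeR unadjusted p = 0.0302, adjusted p = 0.9996). *Hdac4*, the deacetylase best known as the SIK3 substrate in sleep need, had -0.10 with a standard error of 0.07 (edgeR unadjusted p = 0.170). The median of the list was -0.02.

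Of the 5 other casein kinase 1 genes, of which *Csnk1e* is also in the clock list, 0 passed the edgeR unadjusted threshold, with a median log2 fold change of -0.03. *Csnk1a1*, *Csnk1g2* and *Csnk1e* had 0.04, -0.06 and -0.03. Among the 17 further genes of short sleep or sleep amount, 0 passed it and the median was -0.0084. *Camk2a* and *Camk2b*, kinases whose loss shortens sleep in mice, had -0.05 and 0.02, and the potassium channel gene *Kcna2* had -0.02. *Adrb1* itself had -0.07 with a standard error of 0.09 (edgeR unadjusted p = 0.458), and since the mutation changes 1 amino acid its level does not check the genotype. Among the clock genes, *Tef*, *Hlf* and *Cry2* were the most abundant and had log2 fold changes of 0.0075, -0.09 and -0.07.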

How the data were processed

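The authors aligned paired-end reads of cortical RNA to GRCm38 (mm10) with HISAT2 2.0.5, counted them per gene with featureCounts 1.5.0-p3 and deposited the counts without normalization. Strand and multiple-mapping settings are not given in the sources used here. Per the labels, each of the 8 mice is a sample of its own. A gene length column, a number of bases, was used for levels per kilobase.

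Counts were filtered with filterByExpr, scaled with TMM factors and compared in R 4.3.3 by the 2-sided quasi-likelihood test of edgeR 4.0.16 without covariates, with Benjamini-Hochberg adjustment over 17195 genes. Standard errors are the size of the log2 fold change divided by the square root of F, and 95% intervals use the test's degrees of freedom. Correlations used log2 CPM with a prior count of 2 and all orders of the mice. Alternatives were DESeq2 1.42.0, limma-voom (limma 3.58.1), DESeq2's size factors, other count filters and each mouse left out. The procedures were tested on simulated data. For the fits, these had changes larger than those of any member and the same dispersion for every gene. The power to detect differences like those of the members was not tested. Gene models are GENCODE M21, and promoter windows are RefSeq's.

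The members and gene lists were chosen with earlier results of these data known. All members are named. From each list the genes under an unadjusted p of 0.05 are named, or otherwise the 3 of highest CPM, and for each member the 3 genes of highest r. *Hcrt*, *Nps*, *Hdac4*, *Adrb1*, the marker genes, the D-box factors, *Arc* and the clock and immediate early genes with a permutation p under 0.05 are named for their role or after their values were seen.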

Additional observations from a re-analysis of the deposited data

How the results depend on the processing

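All 40 log2 fold changes of members under the 5 settings that changed the test, the scaling or the filter kept their sign and stayed above an unadjusted p of 0.05. The number of genes under that threshold was 481, and 1366 (66 of them also after adjustment) with no filter beyond 1 count, a rise whose cause was not tested. The share of genes rose with it, from 2.80% to 4.06%, while DESeq2 on nearly as many genes gave 555. Without the filter the standard error fell for *Bhlhe40* (0.09 to 0.07), *Bhlhe41* (0.11 to 0.09) and *Per3* (0.12 to 0.08). It rose for *Sik3* (0.050 to 0.062), *Csnk1d* (0.056 to 0.065), *Npsr1* (0.196 to 0.222) and *Hcrtr1* (0.230 to 0.284). For *Hcrtr2* it was 0.25 in both fits. With a mouse left out the number of genes under the threshold was 431 to 674. Over those 8 repeats the log2 fold change ran from -0.19 to -0.065 for *Bhlhe40*, -0.078 to 0.12 for *Bhlhe41*, 0.10 to 0.32 for *Npsr1*, -0.16 to 0.072 for *Per3*, -0.014 to 0.031 for *Sik3*, -0.036 to 0.030 for *Csnk1d*, -0.11 to 0.094 for *Hcrtr1* and -0.54 to -0.12 for *Hcrtr2*. The log2 ratio of *Bhlhe40* to *Bhlhe41* differed by -0.32 to 0.014 and that of *Hcrtr1* to *Hcrtr2* by -0.031 to 0.52. The pairs of *Per3* with clock genes that passed adjustment numbered 0 to 1. The cause of these shifts was not tested beyond the mice named in the results. No paired analysis was possible because every mouse carries an individual number and litters are not in the labels. With 26 to 87 counts per mouse, the receptor genes have wide intervals whatever the setting.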

Other observations

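The extremes of the 8 genes were unevenly spread over the mice. Of the 16 highest and lowest values, 15 belonged to *PS19* mice, and the exception was the highest *Npsr1*, in the *Adrb1-A187V;PS19* mouse m660. Mouse m668, the library with the fewest counts, was lowest in *Bhlhe41*, *Per3*, *Sik3* and *Hcrtr2* and highest in *Bhlhe40*. Mouse m659 was highest in *Sik3*, *Csnk1d* and *Hcrtr2* and lowest in *Hcrtr1*. Mouse m677 was highest in *Bhlhe41* and *Hcrtr1* and lowest in *Bhlhe40* and *Csnk1d*, and m665 was highest in *Per3* and lowest in *Npsr1*. Of the 15 values, 14 follow from the ranges that lay inside those of the *PS19* mice. This was noticed after the values were seen and was not tested.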
